A study of Mus musculus with 28 samples.

Results

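ATAC-seq of periosteal skeletal stem/progenitor cells (pSSPCs) was used to ask where chromatin differed in openness when *Zmpste24* (*Z24*) was lost in these cells. The comparison took every pSSPC library for which a list of open regions was deposited, 3 from conditional knockout mice (CKO) and 3 from control mice (Ctrl), 6 of the 28 libraries of the series. Each library was made from 3000 to 5000 Ai9+ Sca1+ cells negative for CD45, CD31 and Ter119, sorted from the periosteum of femurs and tibiae of 20-week-old mice. CKO mice carried the *Prx1* Cre driver, which is active in limb mesenchyme and its descendants, with floxed *Z24* alleles, and the Ai9 allele marks cells with a history of Cre activity by red fluorescence. The titles divide the libraries into ctrl and cko, while the genotype field of the labels reads PrxCre; Z24fl/fl for all 6, so the genotype of the Ctrl mice rests on the titles. The labels do not say that the replicates came from separate mice, so p-values measure only the spread between these samples. The cells were sorted pools, and a change in the mix of cells cannot be told apart from a change within each cell.

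*Zmpste24* encodes the metalloprotease of the nuclear membrane that cuts prelamin A to mature lamin A. Without it, farnesylated prelamin A stays at the nuclear lamina, the protein mesh under the nuclear envelope that anchors silent chromatin, and mice that lack the enzyme throughout the body age early and lose bone. In ATAC-seq the Tn5 transposase inserts adapters where DNA is not covered by nucleosomes, so sequenced tags pile up at active promoters and enhancers. A peak is such a pile of tags above the local background.

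Peaks had been called by the authors with MACS2 in each library alone. Each list was shortened to the length of the shortest one by −log10 q-value, and the peaks left on chromosomes 1 to 19 and X were merged into 83298 regions wherever they overlapped by 1 bp or more. Of these, 38216 regions (45.9%) held a peak in all 6 lists. A region was named by the nearest start site of a protein-coding gene (GENCODE vM21, GRCm38), without evidence that it acts on that gene, and was placed at the start site where it lay within 1000 bp of it. The measures compared were 3: presence in the lists, the highest fold enrichment of a library over its local background within the region, and the length covered by peaks. The pileup, the number of tags stacked at the summit per M tags of the library (M for mega, as in Mb), is given beside them. Fold enrichment, length and pileup were quantile normalized across the 6 libraries, so that only ranks within a library entered the test, and a region was called at an adjusted p under 0.05 (limma, Benjamini-Hochberg over all 38216 regions).

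The sequence of the start site is shown for 6 genes whose start site region differed between the genotypes. The first 3, at *Sphkap*, *Sh3bgrl2* and *Zfp976*, are all the start sites called by fold enrichment. *Adgrg1*, *Actn1* and *Pcdh17* were chosen after their values were seen, *Adgrg1* and *Actn1* from start sites with higher pileup in CKO that held AP-1 or C/EBP letters and *Pcdh17* from those with lower pileup. Each run holds 250 bases before and 50 bases after the start on the gene's own strand (RefSeq, GRCm38.p6), and capitals mark matches on either strand to the letters of AP-1 (TGANTCA), C/EBP (TTGCNNAA), RUNX (TGTGGT) and TEAD (GGAATG) motifs.
*Sphkap*, chr1:83408151-83408450, minus strand: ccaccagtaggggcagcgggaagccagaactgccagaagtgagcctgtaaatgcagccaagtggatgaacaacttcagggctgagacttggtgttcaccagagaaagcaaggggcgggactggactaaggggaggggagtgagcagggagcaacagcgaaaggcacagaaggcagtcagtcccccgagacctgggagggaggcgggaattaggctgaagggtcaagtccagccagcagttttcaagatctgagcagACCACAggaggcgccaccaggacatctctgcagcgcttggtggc
*Sh3bgrl2*, chr9:83548088-83548387, plus strand: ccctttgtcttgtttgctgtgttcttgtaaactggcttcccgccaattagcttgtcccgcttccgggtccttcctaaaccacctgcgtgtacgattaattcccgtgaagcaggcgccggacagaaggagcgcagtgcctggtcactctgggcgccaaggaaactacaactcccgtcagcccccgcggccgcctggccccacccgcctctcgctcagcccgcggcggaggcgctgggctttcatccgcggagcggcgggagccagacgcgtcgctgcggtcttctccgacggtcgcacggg
*Zfp976*, chr7:42642555-42642854, minus strand: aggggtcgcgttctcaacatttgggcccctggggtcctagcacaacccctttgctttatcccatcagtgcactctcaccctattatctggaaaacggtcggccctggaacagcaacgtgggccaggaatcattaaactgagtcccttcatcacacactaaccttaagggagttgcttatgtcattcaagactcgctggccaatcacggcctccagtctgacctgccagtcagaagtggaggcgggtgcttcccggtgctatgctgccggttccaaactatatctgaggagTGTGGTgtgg
*Adgrg1*, chr8:94984149-94984448, plus strand: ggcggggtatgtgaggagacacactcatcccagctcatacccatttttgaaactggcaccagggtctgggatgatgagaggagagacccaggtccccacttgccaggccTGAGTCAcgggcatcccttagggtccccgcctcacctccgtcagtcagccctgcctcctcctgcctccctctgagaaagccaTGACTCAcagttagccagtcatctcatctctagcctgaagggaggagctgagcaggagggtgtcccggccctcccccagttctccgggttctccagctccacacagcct
*Actn1*, chr12:80260314-80260613, minus strand: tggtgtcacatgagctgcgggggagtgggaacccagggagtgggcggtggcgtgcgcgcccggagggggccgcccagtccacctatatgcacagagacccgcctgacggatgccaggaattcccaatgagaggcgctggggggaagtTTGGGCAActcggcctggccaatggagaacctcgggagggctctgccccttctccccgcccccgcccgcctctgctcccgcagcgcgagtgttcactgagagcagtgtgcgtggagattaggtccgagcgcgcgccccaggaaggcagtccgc
*Pcdh17*, chr14:84443313-84443612, plus strand: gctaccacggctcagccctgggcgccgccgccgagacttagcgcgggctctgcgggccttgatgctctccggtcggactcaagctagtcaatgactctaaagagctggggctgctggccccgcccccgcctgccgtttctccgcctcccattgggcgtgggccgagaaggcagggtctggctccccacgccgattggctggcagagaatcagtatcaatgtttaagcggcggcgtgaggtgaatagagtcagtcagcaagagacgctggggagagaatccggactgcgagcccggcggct

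The window of *Adgrg1*, an adhesion G protein-coupled receptor, held 2 AP-1 matches, and that of *Actn1*, which encodes the actin crosslinker alpha-actinin 1, held 1 C/EBP match, letters for which both were picked. *Sphkap* and *Zfp976* each held 1 RUNX match after the start, and *Sh3bgrl2* and *Pcdh17* held none of the 4. The region at *Adgrg1* had a normalized pileup of 5.07, 4.38 and 5.38 tags per M in Ctrl 1 to 3 and 6.24, 6.62 and 7.20 in CKO 1 to 3 (0.44 ± 0.10 on the log2 scale, SE, limma adjusted p = 0.0168). That at *Actn1* had 3.98, 5.02 and 4.39 in Ctrl and 6.13, 6.40 and 6.73 in CKO, and that at *Pcdh17*, a protocadherin, had 3.65, 3.47 and 3.65 in Ctrl and 2.14, 1.97 and 2.10 in CKO. None of the 3 overlapped between the genotypes. Such windows were available for 26794 genes, 32619 windows in all. AP-1 letters stood in 7.85% of all windows, in 5.13% of the 13279 windows over a region present in all 6 lists, in 12.5% of the 64 windows over a region with higher pileup in CKO and in 12.5% of the 56 windows over a region found in every CKO and no Ctrl list. C/EBP letters stood in 10.9%, 7.91%, 25% and 8.93% of the same windows, RUNX letters in 16.6%, 11.5%, 14.1% and 17.9%, and TEAD letters in 14.6%, 11.6%, 6.25% and 21.4%. In the opposite direction, of 9 windows over a region with lower pileup in CKO, 1 held AP-1, 1 C/EBP and 1 RUNX letters, and none held TEAD letters. Of 18 windows over a region found in every Ctrl and no CKO list none held AP-1 letters, 2 held C/EBP, 3 RUNX and 5 TEAD letters. Some windows overlap each other and share a region, and these shares are a description of letters, not of binding. Other sequence around the peaks was not analysed here.

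*Z24* itself had an open start site in all 6 libraries, at chr4:121097574-121098527. Its fold enrichment was 9.40, 8.22 and 8.88 in Ctrl 1 to 3 and 6.86, 10.2 and 10.1 in CKO 1 to 3. The groups overlapped, and the pileup difference of −0.15 ± 0.25 on the log2 scale (SE) did not pass the test (limma adjusted p = 0.842). Cre removes exon 6 of 10, at chr4:121081172-121081313, and no library had a peak there, so the peak lists do not check the deletion. In RNA-seq of the same population, taken as 2 samples a genotype, *Z24* stood at 0.75 and 16.9 counts per M (CPM) in Ctrl and at 0 and 8.04 CPM in CKO. The value of 0 came from 1875248 counts and allows up to 1.6 CPM.

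Start sites of most periosteal stromal markers were open, as were some of other cell types. Of 21644 protein-coding genes, 57.4% had a start site region in all 6 lists and 36.0% in none. *Ly6a*, which encodes Sca1, and the stromal genes *Prrx1*, *Pdgfra*, *Pdgfrb*, *Thy1*, *Cd34*, *Pi16*, *Dpp4*, *Dcn*, *Col3a1*, *Clec3b*, *Igfbp6*, *Prg4*, *Cilp* and *Ctsk* were open in all 6. *Gli1* was open in 3 lists, *Postn*, the matrix protein periostin, in 1 and the tendon gene *Tnmd* in none. No list held a start site region of *Ptprc* (CD45), *Spi1*, *Csf1r* or *Lyz2* of myeloid cells, *Pecam1* (CD31) or *Cdh5* of endothelium, *Cd3e* of lymphocytes, *Acan* or *Col2a1* of cartilage, *Sp7* of osteoblasts, *Sox10* of Schwann cells or *Myod1* of muscle. Of 12 myeloid markers 11 had no start site region, as had all 10 lymphoid, 7 of 12 endothelial, 7 of 15 chondrocyte and 6 of 10 osteoblast markers. Open in all 6 lists were *Acta2*, *Myh11*, *Tagln*, *Cspg4*, *Notch3* and *Kcnj8* of pericytes and smooth muscle, *Cxcl12*, *Kitl*, *Ebf1*, *Ebf3* and *Foxc1* of bone marrow stroma, *Sox5*, *Sox6*, *Sox9*, *Matn3*, *Comp* and *Nt5e* of chondrocytes, and *Scx*, *Mkx*, *Egr1* and *Thbs4* of tenocytes. The same held for the osteoblast genes *Alpl* and *Col1a1*, the adipocyte genes *Pparg*, *Cebpa* and *Lpl*, the endothelial genes *Kdr*, *Tek* and *Erg*, the erythroid genes *Klf1* and *Epor*, the muscle gene *Des* and *Mbp*, *S100b* and *Erbb3* of Schwann cells.

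The libraries differed in depth, and more in one group than in the other. Ctrl 1 to 3 held 13.9, 12.3 and 26.4 M tags after removal of duplicates, and CKO 1 to 3 held 17.9, 15.1 and 46.8 M. The groups overlapped (17.5 ± 7.71 M in Ctrl and 26.6 ± 17.5 M in CKO, mean ± SD, n = 3 each, exact two-sided permutation p = 0.5, where 0.1 is the smallest that 3 against 3 can give). The median pileup of a called peak was 23 to 39 tags in Ctrl and 28 to 50 tags in CKO, so a median summit rests on few tags. MACS2 called 63516, 59209 and 79724 peaks in Ctrl and 72375, 84042 and 101606 in CKO, which covered 36.8, 32.1 and 49.3 Mb and 40.3, 50.6 and 64.2 Mb (p = 0.2 for either measure, exact permutation). Cutting the lists to 59209 peaks left a lowest −log10 q of 4.23, 1.32 and 8.06 in Ctrl and 6.05, 8.24 and 14.9 in CKO, so a peak had to be stronger to stay in a list that had been longer. The peaks that stayed had a median length of 528, 464 and 661 bp in Ctrl and 548, 658 and 751 bp in CKO.

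**Figure D1:**
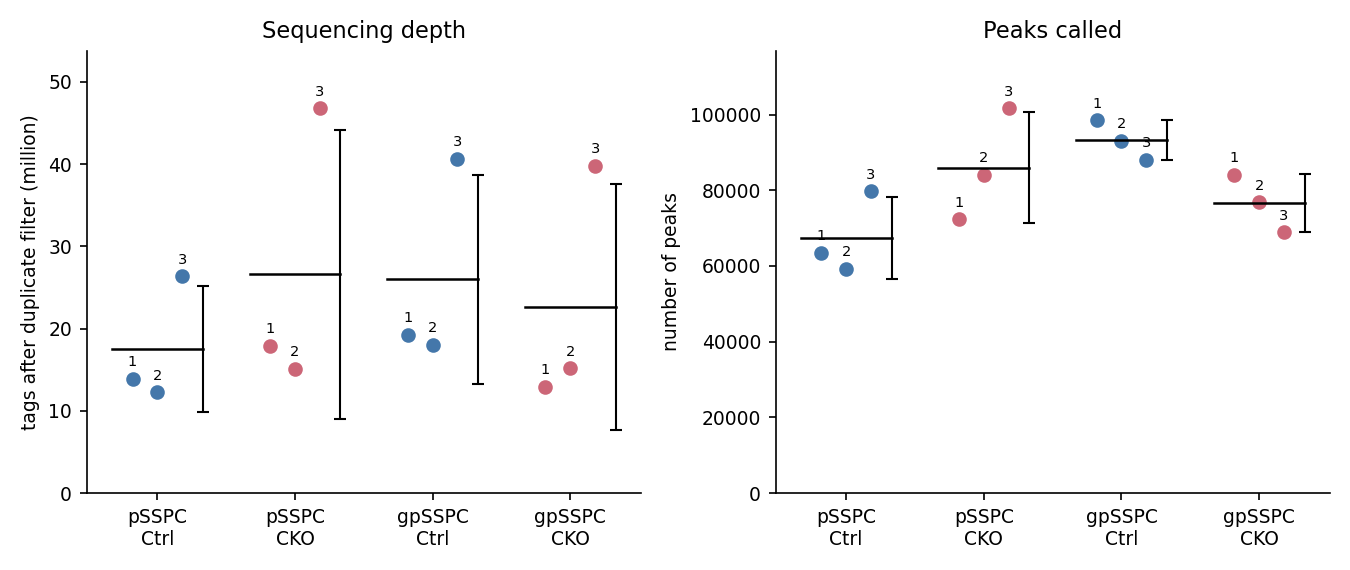
Tags after removal of duplicates in M (left) and number of MACS2 peaks (right) for each ATAC-seq library of pSSPCs and gpSSPCs, 3 Ctrl and 3 CKO libraries each. Points are libraries with their replicate number, black lines the mean and bars the SD; peak numbers of pSSPCs run from 59209 to 101606 and were higher on average in CKO, while those of gpSSPCs were lower on average in CKO.

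Ctrl 2, the shallowest library, stood apart. Its Spearman correlation with the other libraries over the fold enrichment of the 38216 regions was 0.667 to 0.805, compared with 0.788 to 0.891 among the other 5, and it lay at −49.8 on the first principal component (42.6% of the variance), where the others lay between −13.9 and 29.7. By pileup the genotypes separated on the first component (39.8%), with Ctrl 1 to 3 at −29.4, −46.2 and −8.71 and CKO 1 to 3 at 19.6, 27.2 and 37.5. The numbers of regions found in 1 genotype alone and of regions called are therefore also given without each library, while the gene lists, position classes, motif shares and RNA comparison were not recomputed that way.

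Most regions were shared by the genotypes, and those found in one genotype alone lay mainly away from start sites. A peak in all 3 CKO and no Ctrl list was found at 1844 regions (2.21%), named CKO-list regions here, and a peak in all 3 Ctrl and no CKO list at 803 (0.964%), named Ctrl-list regions. With 3 libraries a group presence allows no p under 0.1, and no test was made. Of the CKO-list regions 48.2% were intergenic, 45.6% intronic and 4.34% at a start site, and of the Ctrl-list regions 53.3%, 40.6% and 4.23%. Of all regions 40.8%, 39.1% and 17.5% lay in these classes, and of those in all 6 lists 35.0%, 31.5% and 31.6%. The median distance to a start site was 39.0 kb for CKO-list regions, 49.2 kb for Ctrl-list regions and 27.0 kb for all regions.

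**Figure D2:**
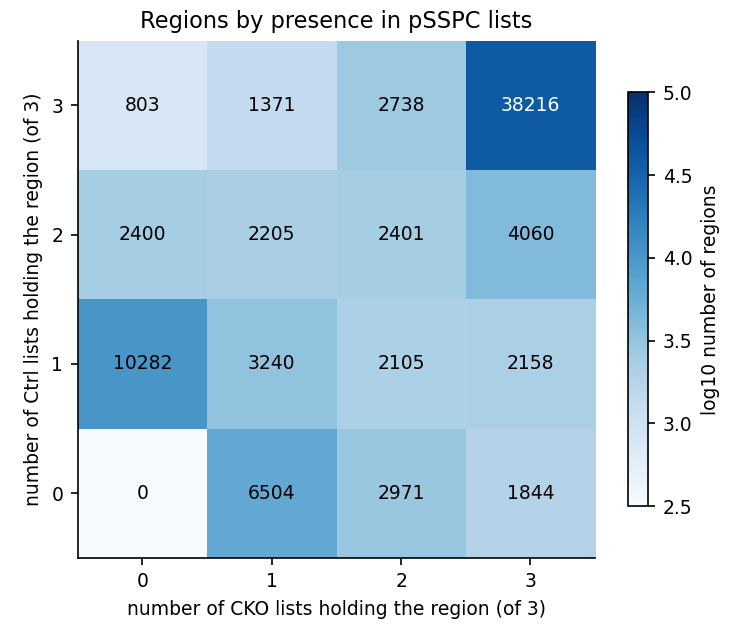
Number of regions by the number of Ctrl lists (vertical axis, 0 to 3) and CKO lists (horizontal axis, 0 to 3) that held a peak, with shading for the log10 count. The corner for all lists holds 38216 regions, the corner for 3 CKO and 0 Ctrl lists 1844 and the corner for 3 Ctrl and 0 CKO lists 803, while 10282 and 6504 regions stood in a single Ctrl or CKO list.

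Absence from a shortened list was often not absence of a peak. Of the 1844 CKO-list regions, 863 had no Ctrl peak in the full lists either, 913 had one in 1 full Ctrl list and 68 in 2, and 957 had one in Ctrl 3, the deepest Ctrl library, against 92 in Ctrl 1. Of the 803 Ctrl-list regions 42 had no CKO peak in the full lists, and 725 had one in CKO 3. The cut had kept 93.2, 100 and 74.3% of the peaks of Ctrl 1 to 3 and 81.8, 70.5 and 58.3% of CKO 1 to 3. Ctrl 2 thus had no further peak to show, and the full CKO lists had more to add. The numbers 863 and 42 therefore cannot be compared as measures of true absence. With full lists the counts became 3289 and 138, on unequal depth. Leaving out a library and asking for presence in the remaining 2 of that genotype moved the CKO-list and Ctrl-list counts to 2297 and 1328 without Ctrl 1, 2365 and 1835 without Ctrl 2 and 3218 and 1741 without Ctrl 3. They were 3617 and 1331 without CKO 1, 2597 and 1239 without CKO 2 and 2342 and 1234 without CKO 3, so CKO-list regions were the larger class in all these settings.

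The strongest CKO-list regions, ranked by their lowest fold enrichment over the 3 CKO libraries, lay in introns (4 of 10) and between genes, 5.61 to 277 kb from a start site (6 of 10). An intron of *Pcca*, a subunit of propionyl-CoA carboxylase, led at chr14:122715870-122716693 with fold enrichments of 13.4, 15.3 and 12.5 in CKO 1 to 3. An intron of *Vwa8* at chr14:79114595-79115366 followed with 12.9, 13.0 and 12.4, and no full Ctrl list held a peak there. A region 277 kb from *Tnc*, which encodes the matrix glycoprotein tenascin C, had 12.4, 14.6 and 12.8. All CKO values of these regions lay above 12. A region 24.4 kb from *Runx3*, a runt transcription factor of cartilage and bone, had 12.4, 15.9 and 12, and an intron of *Bmpr1b*, a receptor for bone morphogenetic proteins, had 11.5, 11.7 and 15.1. A region 19.9 kb from *Dspp*, which encodes a phosphoprotein of dentin and bone matrix, had 11.7, 13.0 and 12.3 and no peak in any full Ctrl list. The same held for regions 25 kb from *Itpr2*, an inositol trisphosphate receptor, and 5.61 kb from *Pkd2*, the calcium channel polycystin 2. The others lay in an intron of *Coro2a* and 272 kb from *Rps15a*.

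The strongest Ctrl-list regions were weaker, and most had a peak in the full CKO lists, which were longer on average. A coding exon of *Naaladl2* at chr3:24432681-24433376 had fold enrichments of 14.4, 10.1 and 11 in Ctrl 1 to 3, and all 3 full CKO lists held a peak there. A region 570 kb from *Lmo4*, a transcriptional cofactor, had 9.24, 8.66 and 12.8. The start site of *Dcstamp*, a membrane protein needed for the fusion of osteoclast precursors, at chr15:39746113-39746941 had 10.5, 8.51 and 8.38, with a peak in 1 full CKO list. The other 7, near *Usp50*, *Gm12695*, *Zfp770*, *Myh1*, *Gm765*, *Clint1* and *Afap1l2*, each had a peak in 1 to 3 full CKO lists. Over whole classes the median of the highest fold enrichment was 8.05 for CKO-list regions, 6.54 for Ctrl-list regions and 10.7 for regions in all 6 lists.

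In fold enrichment 12 regions differed (0.0314%). Of 38216 regions 11 rose in CKO (0.0288%) and 1 fell (0.00262%), and 3906 (10.2%) had an unadjusted p under 0.05. The groups did not overlap at 2593 regions higher in CKO (6.79%) and 3176 lower (8.31%). An intergenic region 38.9 kb from *Cyp2a22*, a cytochrome P450 gene, at chr7:26899507-26900468 had normalized fold enrichments of 5.82, 5.20 and 5.25 in Ctrl 1 to 3 and 12.4, 12.3 and 13.8 in CKO 1 to 3. The groups stood far apart, by 1.24 ± 0.15 on the log2 scale (SE, limma adjusted p = 0.0201), and no gpSSPC list held a peak there. On chromosome 12 a region 242 kb from *Gm21863* at chr12:20196249-20197183 had 7.56, 8.71 and 6.76 in Ctrl and 14.9, 19.8 and 18.4 in CKO (1.2 ± 0.14, limma adjusted p = 0.0201). A second one, 665 kb from *Gm21863* at chr12:19288066-19289034, had 6.80, 7.93 and 7.01 in Ctrl and 13.1, 18 and 17.3 in CKO. *Cyp2a22*, *Gm21863* and *Zfp976* belong to families of similar genes, and how reads that fit several places were treated is not given in the sources used here, so these values are uncertain.

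The start sites of *Sphkap*, *Sh3bgrl2* and *Zfp976*, printed above, were the 3 called start sites. *Sphkap*, which anchors protein kinase A, had 6.42, 8.71 and 6.49 in Ctrl and 12.6, 15.3 and 15.4 in CKO (1.01 ± 0.15, limma adjusted p = 0.0479), with no overlap. *Sh3bgrl2* had 7.56, 6.14 and 6.76 in Ctrl and 12, 14.5 and 13.3 in CKO (0.96 ± 0.14). *Zfp976*, a zinc finger gene, had 13.7, 10.7 and 13.4 in Ctrl and 19.2, 20.9 and 19.8 in CKO (0.67 ± 0.10), but its pileup difference of 0.56 ± 0.18 did not pass (limma adjusted p = 0.105). Their RNA was near the limit of detection, at under 2 CPM in each of the 4 samples. The other called regions lay 53.8 kb from the glycosyltransferase gene *Galntl6*, in an intron of *Rnf150* with *Tbc1d9* as nearest start site, 35.8 kb from the signalling adaptor *Shc3*, 111 kb from *Tlr4*, the receptor for bacterial lipopolysaccharide, and in an intron of *Mcub* 28.8 kb from *Casp6*, an effector caspase. The *Casp6* region had 7.56, 6.6 and 6.02 in Ctrl and 12.1, 12.9 and 16.7 in CKO (1.04 ± 0.16, limma adjusted p = 0.0479). *Casp6* RNA was 12 and 22.3 CPM in Ctrl and 44.3 and 24.1 CPM in CKO.

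The region that fell lay over a coding exon of *Unc13b*, a priming factor of synaptic vesicles, at chr4:43177099-43177554. Its normalized fold enrichment was 14.1, 13.3 and 12.3 in Ctrl and 7.20, 7.14 and 7.49 in CKO (−0.86 ± 0.13, limma adjusted p = 0.0479), and no gpSSPC list held a peak there. As 1 region passed in this direction, the 10 largest lower differences without overlap are named with no further call. They were near or in *Pla2g4a*, *Intu*, *Unc13b*, *Stmn2*, *Abcc12*, *Gata3*, *Cdh20*, *Ctxn3*, *Vps13d* and *Apold1*, and the largest, 533 kb from *Pla2g4a*, had 14.5, 9.11 and 15.3 in Ctrl and 6.13, 5.71 and 7.30 in CKO (limma adjusted p = 0.099). At the other end of the scale, the regions of highest rank over all 6 libraries were start sites of *Cdc25c*, *Golph3l* and *Gins4*, an intron of *Mrps27* and a region 496 kb from *Asap2*, with pileup differences of at most 0.16 on the log2 scale.

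**Figure D3:**
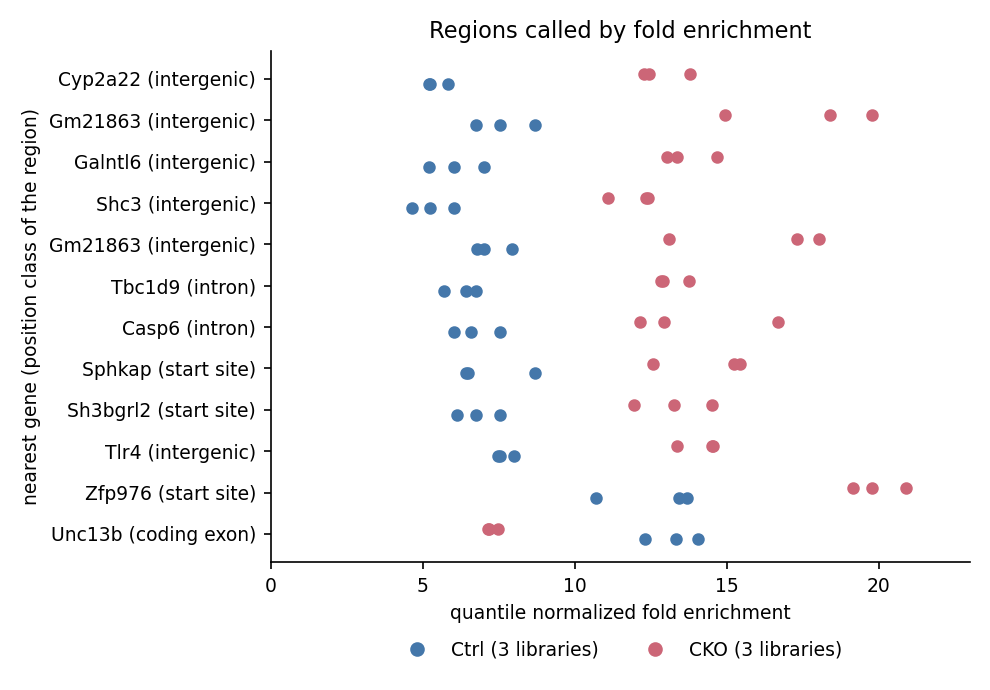
Quantile normalized fold enrichment (horizontal axis) of the 12 regions called by limma, each row a region with its nearest gene and position class and each point 1 of 3 Ctrl (blue) or 3 CKO (red) libraries. The groups do not overlap in any row: 11 regions were higher in CKO and the one at *Unc13b* was lower.

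The number of calls by fold enrichment moved with each library. Without CKO 2 or CKO 3 no region was called, without CKO 1 there were 3 higher and 0 lower, and without Ctrl 1, 2 and 3 there were 25 and 0, 37 and 1, and 257 and 11. With the log2 number of tags as a covariate no region was called in either direction. The part of depth in these calls was not tested further.

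The length of the open interval differed at 8 regions, all longer in CKO (0.0209%) and none shorter (0.0% called by limma, 2828 regions or 7.4% with an unadjusted p under 0.05 in either direction). The groups did not overlap at 5.74% of regions on the longer side and 7.2% on the shorter. An intergenic region 799 kb from *Otol1* at chr3:70806760-70807762 covered 235, 200 and 306 bp in Ctrl and 889, 978 and 997 bp in CKO (1.79 ± 0.16, limma adjusted p = 0.027). A region in an intron of *Slx4ip*, 66.0 kb from *Jag1*, a Notch ligand, covered 380, 269 and 465 bp in Ctrl and 1139, 1197 and 1264 bp in CKO. The start site of *Hrh1*, the histamine H1 receptor, covered 670, 515 and 720 bp in Ctrl and 1492, 1532 and 1421 bp in CKO, while its pileup groups overlapped. The others lay near *Etaa1*, in *Kcnd3* near *Ddx20*, in *Mturn*, in *Rnf150* and at the start of *Nexmif* on the X chromosome. Each region was longer in the 3 CKO than in the 3 Ctrl libraries. These calls did not last: without CKO 1, CKO 2, CKO 3 or Ctrl 1, or with the number of tags as a covariate no region was longer, and without Ctrl 3 there were 26. Without Ctrl 2 there were again 8, of which 5 were the same regions.

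Pileup per M tags differed at 927 regions (2.43%). Of the 38216 regions 637 rose in CKO (1.67%) and 290 fell (0.759%), and 6108 (16.0%) had an unadjusted p under 0.05. The groups did not overlap at 3640 regions higher (9.52%) and 3682 lower (9.63%). Of the 12 regions called by fold enrichment, 9 of the 11 higher ones and the lower one were also called by pileup. Pileup had been listed as an alternative to fold enrichment and was given its own account after its number of calls was seen.

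**Figure D4:**
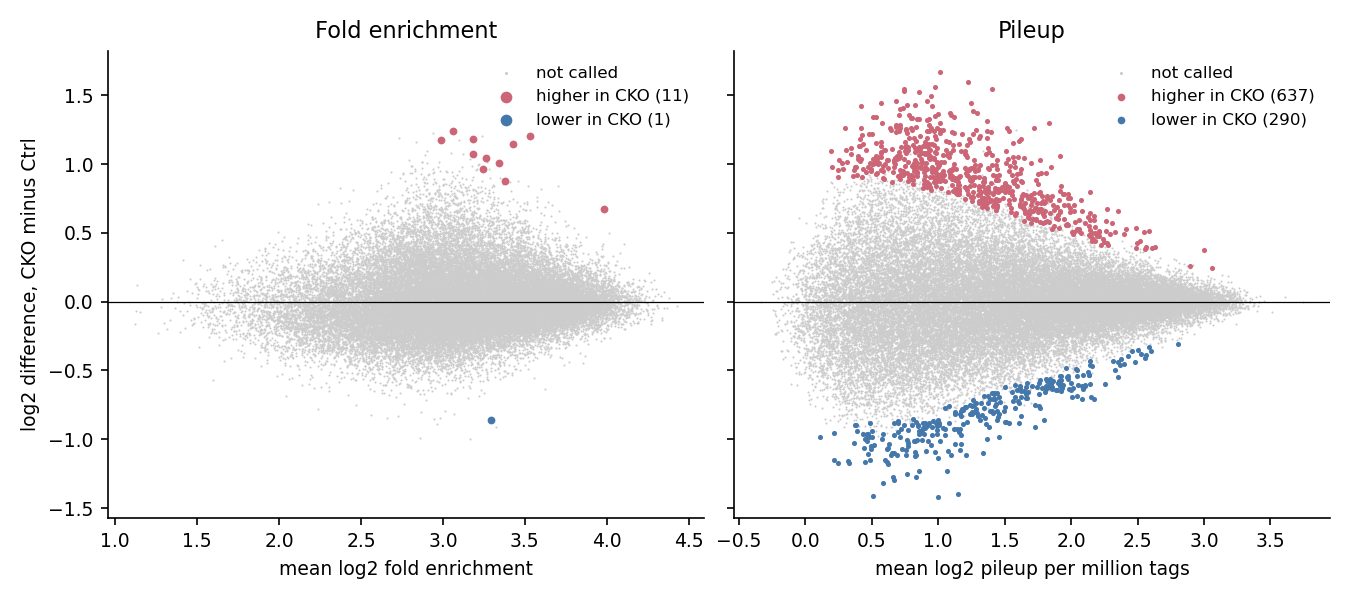
Difference between CKO and Ctrl (vertical axis, log2) against the mean level over the 6 libraries (horizontal axis, log2) for fold enrichment (left) and pileup per M tags (right), 1 point per region, with called regions in red (higher in CKO) and blue (lower). By fold enrichment 11 regions were higher and 1 lower, and by pileup 637 were higher and 290 lower, spread over low and middle levels.

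Distal regions made up most of the pileup calls. Of 12070 start site regions 56 rose (0.464%) and 8 fell (0.0663%), of 12021 intronic regions 276 rose (2.3%) and 104 fell (0.865%), and of 13378 intergenic regions 293 rose (2.19%) and 169 fell (1.26%). An intron of *Lgr6*, a receptor for R-spondins that strengthens Wnt signalling, passed with the smallest p. At chr1:135021687-135022442 its normalized pileup was 2.15, 2.2 and 2.04 tags per M in Ctrl and 4.76, 5.47 and 5.13 in CKO (1.26 ± 0.15, limma adjusted p = 0.000273). A region 30.1 kb from *Socs1*, an inhibitor of JAK-STAT signalling, had 1.33, 1.07 and 1.70 in Ctrl and 3.63, 4.03 and 4.6 in CKO (1.60 ± 0.21, limma adjusted p = 0.000636). A region 132 kb from *Ibtk* had the largest named difference, at 1.67 ± 0.23. A region 17.4 kb from *Pdgfa*, which encodes a platelet-derived growth factor chain, had 2.51, 2.45 and 2.72 in Ctrl and 5.80, 4.66 and 4.76 in CKO (0.98 ± 0.15). In each of these the lowest CKO library lay above the highest Ctrl library. Others with among the smallest p lay at *Etv5*, an ETS factor, *Ppard*, a nuclear receptor for fatty acids, *Hk1*, a hexokinase, *Gpt2*, *Uck2*, *Jade2*, *Ppp2ca*, *Map3k7cl*, *Elfn1* and *Gsap*, with differences of 0.98 to 1.56. Within 50 kb, *Mcub* had 3 regions called higher in CKO and 24 other genes had 2. Among them were the Wnt receptor *Lgr6*, the laminin gene *Lamb1* and the collagen lysyl hydroxylase gene *Plod2*. The homeobox gene *Dlx4* and the death receptor adaptor *Fadd* were others. Regions called in both directions lay near 5 genes.

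The regions that fell with the smallest p included 2 in *Slit3* and 1 each near *Alox12*, *Wnt5a* and in *Ror1*. A region 10.5 kb from *Alox12*, a lipoxygenase, had 4.05, 3.06 and 3.74 tags per M in Ctrl and 1.33, 1.22 and 1.58 in CKO (−1.39 ± 0.21, limma adjusted p = 0.00136). *Slit3*, which encodes a secreted ligand of Robo receptors, had 2 such introns: the one at chr11:35307491-35308505 had 2.58, 2.28 and 2.62 in Ctrl and 0.892, 1.01 and 1.16 in CKO (−1.30 ± 0.24, limma adjusted p = 0.00435), and the other differed by −0.69 ± 0.13. *Slit3* RNA was 48.8 and 69.8 CPM in Ctrl and 25.6 and 32.4 CPM in CKO, without overlap. A region 127 kb from *Wnt5a*, a ligand of non-canonical Wnt signalling, had 2.95, 2.11 and 2.89 in Ctrl and 1.01, 1.16 and 1.14 in CKO (−1.25 ± 0.24), and an intron of *Ror1*, which encodes a receptor for Wnt5a, had 5.56, 6.05 and 4.73 in Ctrl and 3.58, 3.59 and 2.83 in CKO. *Wnt5a* RNA overlapped between the groups. The others lay near or in *Nav2*, *Slc30a5*, *Cldn14*, *Neurl1b*, *Tmem38b*, *Lrrc66*, *Bbox1*, *Lrrk1*, *Pla2g4a* and *Intu*.

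The number of pileup calls moved with every library. It was 303 higher and 36 lower without Ctrl 1, 1014 and 579 without Ctrl 2 and 1079 and 428 without Ctrl 3. It was 241 and 99 without CKO 1, 83 and 22 without CKO 2 and 91 and 39 without CKO 3. With the log2 number of tags as a covariate it was 476 and 272.

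The rank of start sites among the regions of their library did not differ beyond the spread between libraries. Ranks within a library cannot show a gain or loss of openness that is common to all its regions. The mean percentile of fold enrichment of start site regions among all regions of a library was 66.0, 69.9 and 63.3 in Ctrl and 66.3, 63.3 and 60.9 in CKO. The groups overlapped (66.4 ± 3.34 and 63.5 ± 2.70, SD, n = 3 each, exact permutation p = 0.4, smallest possible 0.1). By pileup the means were 73.4 ± 1.03 and 73.7 ± 0.431 (exact permutation p = 0.7), so the sign of the difference turned with the measure, −2.91 by fold enrichment and 0.342 by pileup. The share of peak regions at a start site was 23.3 ± 0.515% in Ctrl and 23 ± 0.503% in CKO (exact permutation p = 0.5). The median difference of tested regions was −0.05 on the log2 scale at start sites and −0.03 over all by fold enrichment, and 0.01 and −0.01 by pileup.

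Several gene lists, from bone transcription factors and matrix genes to apoptosis regulators, held regions that passed the test by pileup. Lists are described by their counts beside those of all regions, 2.21% in CKO-list regions, 0.964% in Ctrl-list regions, 1.67% higher and 0.759% lower by pileup, and 9.52% and 9.63% without overlap, and fold enrichment called no region of any list. Of 109 regions within 50 kb of 18 osteogenic transcription factors, 6 were CKO-list regions (5.5%) and none was a Ctrl-list region. Of 43 tested by pileup 2 rose (4.65%), and 10 lay higher (23.3%) and 6 lower (14%) without overlap. The median difference of the 43 was −0.04 on the log2 scale, compared with −0.01 over all regions. An intron of *Runx1*, a runt factor of blood and skeletal progenitors, had 2.45, 2.36 and 2.39 tags per M in Ctrl and 3.86, 3.65 and 4.29 in CKO (0.71 ± 0.16, limma adjusted p = 0.0175). The start site of *Msx2*, a homeobox factor of skeletal patterning, had 1.14, 2.11 and 1.26 in Ctrl and 2.14, 3.81 and 3.47 in CKO (1.07 ± 0.25, limma adjusted p = 0.022). The highest Ctrl value stood just under the lowest CKO value there. CKO-list regions of this list lay 26.0 and 38.0 kb from *Runx1*, in an intron of *Runx2*, the master factor of osteoblasts, 24.4 and 39.6 kb from *Runx3* and 0.875 kb from *Prrx1*, a mesenchymal homeobox gene. *Runx2* RNA was 26.3 and 21.6 CPM in Ctrl and 33.6 and 26.0 CPM in CKO, with overlap.

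Of 190 regions near 24 mechanosensing genes and YAP targets, 7 were CKO-list regions (3.68%) and none was a Ctrl-list region. Of 94 tested by pileup 2 rose (2.13%) and none fell, with 20 higher (21.3%) and 2 lower (2.13%) without overlap. A region 5.30 kb from *Ccn2*, a matricellular target of YAP, had 2.03, 1.52 and 2.89 in Ctrl and 3.35, 3.53 and 4.05 in CKO (0.81 ± 0.20, limma adjusted p = 0.0316). One 36.9 kb from *Vcl*, which encodes the focal adhesion protein vinculin, had 2.28, 2.2 and 2.79 in Ctrl and 3.58, 4.06 and 4.05 in CKO (0.69 ± 0.17, limma adjusted p = 0.0243). CKO-list regions lay near *Amotl2*, with fold enrichments of 7.55, 13.0 and 9.59, *Wwtr1*, which encodes the YAP paralog TAZ, the ion channels *Piezo1*, *Piezo2* and *Pkd2*, *Ccn2* and the receptor kinase *Axl*. *Ccn2* RNA was 84.0 and 250.3 CPM in Ctrl and 97.6 and 306.4 CPM in CKO, with overlap.

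Matrix regions went in both directions. Of 139 tested regions of 32 glycoprotein and proteoglycan genes 5 rose by pileup (3.6%) and 2 fell (1.44%). The start site of *Tnc* had 2.77, 2.2 and 2.89 in Ctrl and 3.97, 4.06 and 3.86 in CKO (0.61 ± 0.16, limma adjusted p = 0.041), and 2 more regions within 50 kb of it were CKO-list regions. *Tnc* RNA was 33.8 and 48.3 CPM in Ctrl and 103 and 82.9 CPM in CKO, without overlap. Regions near *Fbln2*, *Fbn1*, *Thbs1* and *Lox*, which encode fibulin 2, fibrillin 1, thrombospondin 1 and the collagen crosslinking enzyme lysyl oxidase, rose by 0.66 to 1.10 on the log2 scale, and regions near *Thbs2* and *Prelp* differed by −0.58 ± 0.16 and −0.92 ± 0.25. RNA did not follow the regions throughout. *Fbn1* RNA was 208 and 269 CPM in Ctrl and 421 and 272 CPM in CKO, higher without overlap. *Fbln2* RNA was lower without overlap, at 462 and 592 CPM in Ctrl and 351 and 406 CPM in CKO, and so was *Thbs1* RNA, at 112 and 97.5 CPM in Ctrl and 72.5 and 94.5 CPM in CKO. *Prelp* RNA overlapped between the groups. Of 125 tested regions of 22 collagen genes none was called, with 4 higher (3.2%) and 17 lower (13.6%) without overlap. Of 68 integrin regions none was called. CKO-list and Ctrl-list regions numbered 3 and 1 in the glycoprotein and proteoglycan list, 4 and 1 in the collagen list and 2 and 2 in the integrin list, which is 1.2% and 0.402%, 1.9% and 0.474%, and 1.32% each of their regions.

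Of the cell cycle inhibitors and senescence genes, 6 of 68 regions were CKO-list regions (8.82%) and 1 a Ctrl-list region, at the start of *Hmga2*. The CKO-list regions lay near the cyclin-dependent kinase inhibitor genes *Cdkn1a*, *Cdkn1b*, *Cdkn2b* (2 regions) and *Cdkn2c* and over 1 start site of *Cdkn2a*, which encodes p16 and p19Arf. That region had fold enrichments of 6.18, 9.16 and 11.8 in CKO and a peak in 1 full Ctrl list, while another start site region of *Cdkn2a* was in all 6 lists. The region 24.1 kb from *Cdkn2c* had 7.55, 15 and 10.5, and no full Ctrl list held it. *Cdkn2a* RNA was under 1 CPM in every sample. By fold enrichment the 39 tested regions of this list leaned lower, with a median difference of −0.13 and 17.9% above 0. Over all regions these were −0.03 and 44.0%. Without overlap 0 lay higher and 3 lower (7.69%) by fold enrichment, beside 6.79% and 8.31% of all regions. By pileup the median was 0.01 with 53.8% above 0, beside −0.01 and 48.6% over all. Among 39 tested regions of this list none rose by pileup, and an intron of *Mmp3* fell (−0.96 ± 0.25, limma adjusted p = 0.0407), with *Mmp3* RNA at 140.3 and 126 CPM in Ctrl and 164 and 184 CPM in CKO.

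Apoptosis regulators had 2 regions that rose among 51 tested (3.92%), both within 50 kb of *Fadd*, in introns of *Ano1*. The nearer had 3.07, 1.67 and 2.60 in Ctrl and 4.82, 3.26 and 4.33 in CKO (0.78 ± 0.20), and the other 3.53, 3.06 and 4.47 in Ctrl and 5.09, 5.80 and 5.98 in CKO (0.62 ± 0.13, limma adjusted p = 0.0117). *Fadd* RNA was 12 and 16.1 CPM in Ctrl and 52.8 and 18.8 CPM in CKO. Of the 83 regions of this list 2 were CKO-list regions (2.41%), near *Bid* and *Bbc3*, which encode BH3-only death proteins. A Ctrl-list region (1.2%) lay near *Birc3*, an inhibitor of apoptosis. Both shares were near those of all regions (2.21% and 0.964%). Of 63 tested regions of p53 targets, 88 of NF-kB and inflammation genes and 43 of interferon response and antigen presentation genes none was called by pileup. In that order 5, 6 and 2 lay higher without overlap (7.94%, 6.82% and 4.65%, beside 9.52% of all regions). Lower without overlap were 7, 7 and 0 (11.1%, 7.95% and 0.0%, beside 9.63%). The p53 targets had 3 CKO-list regions (2.59%), near *Cdkn1a*, *Bbc3* and *Phlda3*, and 2 Ctrl-list regions (1.72%), near *Mdm2* and *Sesn1*. The NF-kB and inflammation genes had 1 CKO-list region (0.725%), near *Traf1*, and 3 Ctrl-list regions (2.17%), near *Nfkbia*, *Birc3* and *Csf1*, and the interferon list had none of either. Of the AP-1 and immediate early genes 1 region near *Egr3* rose and 1 near *Ier2* fell among 92 tested, and 6 of 158 regions were CKO-list regions (3.8%), near *Fos*, *Fosl2*, *Batf3*, *Atf3* (2 regions) and *Egr3*, and 1 was a Ctrl-list region (0.633%), 19.0 kb from the start of *Fosl2*. Of 37 tested regions of lamins and nuclear envelope genes 1 rose (2.7%), in an intron of *Lmnb1*, which encodes lamin B1 (0.80 ± 0.19, limma adjusted p = 0.0197).

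Of 18 periosteal stromal markers *Pdgfra* had a region that fell. Of their 70 tested regions 1 fell and none rose, and 13 lay lower (18.6%) and 3 higher (4.29%) without overlap, with a median difference of −0.12. The region that fell, 29.9 kb from *Pdgfra*, a receptor of mesenchymal progenitors, had 4.56, 4.12 and 4.39 in Ctrl and 3.35, 2.95 and 2.58 in CKO (−0.56 ± 0.15, limma adjusted p = 0.0391). *Pdgfra* RNA was 322 and 194 CPM in Ctrl and 121 and 162 CPM in CKO, and *Prrx1* RNA 558 and 348 CPM in Ctrl and 171 and 202 CPM in CKO, without overlap in either. The start of *Gli1* was a Ctrl-list region, with RNA at 1.5 and 1.75 CPM in Ctrl and 1.60 and 13.6 CPM in CKO. *Prg4* RNA was 2082 and 8944 CPM in Ctrl and 7580 and 30521 CPM in CKO. For both genes the groups overlapped. For *Prg4* the first CKO sample lay above the first Ctrl sample and the second above the second. For *Gli1* only the second samples can be ranked in this way. Its first samples stood at or under 3 counts, which is 2.25 CPM in Ctrl and 1.6 CPM in CKO. Of the chondrocyte markers the start of *Sox6*, a cartilage transcription factor, had 3.0, 2.74 and 2.95 in Ctrl and 1.67, 1.26 and 1.54 in CKO (−0.97 ± 0.21, limma adjusted p = 0.0135), 1 of 20 regions tested, and *Sox6* RNA overlapped. An intron of *Sox5*, another cartilage factor of this list, held a CKO-list region with no peak in a full Ctrl list, and *Sox5* RNA was higher without overlap, at 47.3 and 69.1 CPM in Ctrl and 81.1 and 94.5 CPM in CKO. Of the endothelial markers an intron of *Plvap* rose, 1 of 20 (0.79 ± 0.20), with RNA at 41.3 and 38.1 CPM in Ctrl and 81.1 and 71.8 CPM in CKO, and 2 regions were CKO-list and 3 Ctrl-list regions among 59. Of the other endothelial genes with such regions, *Egfl7* had a CKO-list region 7.28 kb away and RNA that was lower without overlap, at 36.0 and 38.9 CPM in Ctrl and 3.20 and 17.8 CPM in CKO, and an intron of *Erg* held the other CKO-list region. Ctrl-list regions lay in an intron of *Pecam1*, 20.4 kb from *Emcn* and 46.5 kb from *Sox17*, whose RNA overlapped between the groups, at 0 and 0.499 CPM in Ctrl and 0 and 11.9 CPM in CKO for *Emcn* and 0 and 2.87 CPM in Ctrl and 0 and 10.4 CPM in CKO for *Sox17*. The start sites of *Pecam1* and *Cdh5* were in no list. Of the lymphoid markers an intron of *Bcl11b* rose, 1 of 2 tested. No region of osteoblast, tenocyte, adipocyte, myeloid, erythroid, pericyte and smooth muscle, bone marrow stromal, skeletal muscle or Schwann cell markers or of *Hox* genes was called, with 3 to 31 tested in each list. In presence, these lists held few regions of 1 genotype alone. CKO-list regions were 1 of 40 in the osteoblast list (2.5%), 2 of 67 in bone marrow stroma (2.99%) and 2 of 44 in pericytes (4.55%). They were 1 of 24 in adipocytes (4.17%), 1 of 16 in muscle (6.25%) and 2 of 23 in Schwann cells (8.7%), beside 2.21% of all regions. Ctrl-list regions numbered 2, 0, 1, 1, 0 and 0 in the same order and 1 of 74 in *Hox* genes (1.35%), beside 0.964% of all. The start sites of *Myocd*, a cofactor of smooth muscle genes, *Bglap*, which encodes the osteoblast protein osteocalcin, and *Hp* of bone marrow stroma were in 0 Ctrl and 3 CKO lists, with a peak in 1, 2 and 1 full Ctrl lists. CKO-list regions also lay 29.2 kb from the pericyte gene *Rgs5*, 2.21 kb from the muscle gene *Des*, 13.2 kb from the adipocyte gene *Adipoq* and in introns of *Mbp* (2 regions). Ctrl-list regions lay near *Alpl*, *Phex*, *Pparg*, *Mcam* and *Hoxb8*. *Rgs5* RNA was higher in CKO without overlap, at 32.3 and 86.6 CPM in Ctrl and 106 and 158 CPM in CKO, as was *Des* RNA, at 0 and 7.36 CPM in Ctrl and 12.8 and 29.4 CPM in CKO. *Adipoq* RNA was lower without overlap, at 12.8 and 26.0 CPM in Ctrl and 11.2 and 6.18 CPM in CKO. *Bglap*, *Hp* and *Myocd* RNA overlapped between the groups. The part of other cell types in the results was not tested. No pileup call of a list region named here, nor of the *Adgrg1*, *Actn1* and *Pcdh17* start sites, was kept without each library. Of these 24 regions all lost the call without CKO 3, 22 without CKO 2, 14 without CKO 1, 21 without Ctrl 1, 4 without Ctrl 2 and 2 without Ctrl 3, and none changed direction.

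For 18 genes singled out earlier on these samples, chosen with their results known and so no independent evidence, 112 regions lay within 50 kb and 57 were tested. None was called by fold enrichment, length or pileup. By pileup 3 lay higher (5.26%) and 11 lower (19.3%) without overlap, beside 9.52% and 9.63% of all regions. The lower ones belonged to *Col5a1* (4), *Itga11* (3), *Myoc* (2), *Itga2* (1) and *Inmt* (1), genes singled out as lower in CKO. *Aspn*, *Nrde2*, *Lrp4* and *Slurp1*, also singled out as lower, had none. The higher ones belonged to *Bcl3* and *Cxcl9*, singled out as higher, and to *Col5a1* (1 each). *Gbp6*, *Snai2*, *Cdkn1a*, *Prg4* and *Rgcc*, also singled out as higher, had none. The start sites of *Gbp6*, *Snai2*, *Cdkn1a*, *Bcl3*, *Cxcl9*, *Col5a1*, *Itga2*, *Itga11*, *Nrde2*, *Lrp4*, *Prg4*, *Rgcc* and *Inmt* were open in all 6 lists. The start of *Cxcl9*, a chemokine induced by interferon gamma, had 1.71, 2.03 and 1.78 in Ctrl and 2.67, 2.45 and 2.91 in CKO, which did not overlap but did not pass the test (0.54 ± 0.20, limma adjusted p = 0.17). That of *Cdkn1a*, which encodes p21, differed by −0.13 ± 0.08 (limma adjusted p = 0.47). Of the 112 regions 2 were CKO-list regions (1.79%, beside 2.21% of all regions) and none was a Ctrl-list region. The first lay 9.92 kb from *Cdkn1a*, with fold enrichments of 4.49, 6.01 and 3.61 and no peak in a full Ctrl list. Another, in an intron of the tenascin gene *Tnn*, had 4.51, 4.25 and 4.37 and no peak in a full Ctrl list, with *Tnn* RNA lower without overlap, at 10.5 and 78.5 CPM in Ctrl and 8.53 and 9.21 CPM in CKO. Of 7 tested regions of *Itga11*, a collagen-binding integrin, 3 lay lower without overlap (smallest limma adjusted p 0.0628), and of 15 of *Col5a1* 4 lay lower and 1 higher. *Itga11* RNA was 64.5 and 86.0 CPM in Ctrl and 37.3 and 48.8 CPM in CKO. The start of *Slpi* was in 0 Ctrl and 2 CKO lists.

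RNA of the genes near called regions was compared in the RNA-seq libraries of the same population, which are other cells. Replicates 2 and 3 of a genotype differed by less than the sampling noise and were summed to 1 sample, so each genotype had 2, and genes with a mean of at least 10 CPM were used, with differences of log2(CPM + 1). Of 6857 such genes with a region within 50 kb, 14.7% were higher in both CKO than in both Ctrl samples and 11% lower, with a median difference of 0.10. Of 188 genes near a region that rose by pileup 22.9% were higher and 9.04% lower (median 0.32), and of 49 genes near a region that fell 8.16% were higher and 22.4% lower (median −0.08). Where the region that rose was at the start site, 8 of 20 genes were higher and 1 lower (median 0.68). Where the region that fell was at the start site, 3 genes were measured, with 0 higher and 0 lower (median 0.17). The 5 genes near regions called in both directions were in neither pileup set. Of 461 genes near CKO-list regions 19.1% were higher and 8.03% lower (median 0.22), and of 178 near Ctrl-list regions 12.4% were higher and 12.4% lower. These are counts over genes with 2 samples a genotype, and no test was made. The first and second samples could differ alike in both genotypes, as for *Fos*, at 1478 and 4363 CPM in Ctrl and 1511 and 4176 CPM in CKO. The counts did not take the samples as pairs. Overlap between groups can thus hide a difference of 1 sign between samples of the same place, as with *Prg4*.

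Genotype differences in the growth plate population (gpSSPCs, Ai9+ CD73+ cells of the same mouse lines, 3 Ctrl and 3 CKO libraries) show where pSSPCs stood apart. The number of peaks was higher by 18525 on average in CKO pSSPCs and fell by 16585 in CKO gpSSPCs (93224 ± 5230 in Ctrl and 76639 ± 7572 in CKO, SD, n = 3 each). The difference between the populations was 35110 peaks (permutation of genotype within population, two-sided p = 0.015, smallest possible 0.005). That of the tags was 12.4 M (permutation p = 0.415). Of the CKO-list regions of pSSPCs 26.6% held a peak in all 3 gpSSPC Ctrl libraries and 46.1% in no gpSSPC library, and of the Ctrl-list regions 12.5% and 68.7%, compared with 37.9% and 42.5% of all regions.

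Of 21569 regions present in all 12 shortened lists, none had a genotype difference in fold enrichment that differed between the populations (limma interaction, 2140 regions or 9.92% with an unadjusted p under 0.05). By pileup 5 did (0.0232%, with 1436 or 6.66% at an unadjusted p under 0.05), near *Lgr6*, *Socs1*, *Uck2*, *Ibtk* and *Jade2*. The *Lgr6* intron, normalized over 12 libraries, had 2.06, 2.11 and 2.01 tags per M in pSSPC Ctrl and 4.35, 4.97 and 4.67 in pSSPC CKO. In gpSSPCs it had 7.56, 7.97 and 6.11 in Ctrl and 7.11, 7.82 and 5.63 in CKO. The pSSPC groups stood apart, the gpSSPC groups overlapped and all 6 gpSSPC values lay above those of pSSPC CKO, with an interaction of 1.26 ± 0.18 (limma adjusted p = 0.00666). The *Socs1* region had 1.33, 1.08 and 1.68 in pSSPC Ctrl and 3.30, 3.62 and 4.18 in pSSPC CKO, against 4.80, 4.64 and 3.61 in gpSSPC Ctrl and 3.92, 3.51 and 2.94 in gpSSPC CKO (1.79 ± 0.27, limma adjusted p = 0.00666). There the gpSSPC groups overlapped, with the CKO mean lower. At the regions of *Uck2*, *Ibtk* and *Jade2* the interaction was 1.14 ± 0.20, 1.52 ± 0.27 and 1.00 ± 0.18 (limma adjusted p = 0.0416, 0.0416 and 0.0494), and the gpSSPC groups overlapped at *Ibtk* and *Jade2* and not at *Uck2*, where CKO was lower. Without pSSPC CKO 3, gpSSPC Ctrl 1 or gpSSPC Ctrl 2 no region passed, without pSSPC Ctrl 3 or gpSSPC Ctrl 3 there were 15 and 12, and without pSSPC Ctrl 1, pSSPC CKO 2, gpSSPC CKO 1 or gpSSPC CKO 2 there were 2 each. Without pSSPC Ctrl 2 there were 6, and without pSSPC CKO 1 or gpSSPC CKO 3 there were 4.

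**Figure D5:**
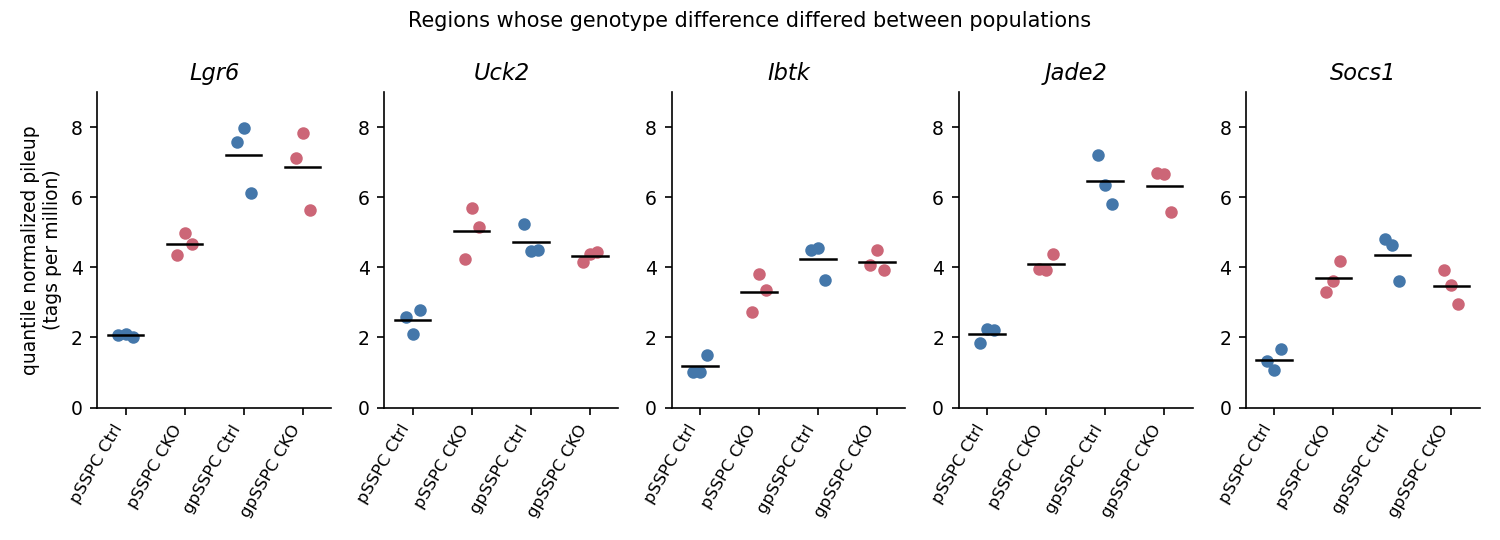
Quantile normalized pileup (vertical axis, tags per M) at the 5 regions whose genotype difference differed between pSSPCs and gpSSPCs, each panel a region named by its nearest gene, points the 3 libraries of a group and lines the mean. In each panel the 3 pSSPC Ctrl values are the lowest and the pSSPC CKO values lie above them, while the gpSSPC groups overlap or, at *Uck2*, lie next to each other with CKO lower.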

How the data were processed

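ATAC-seq reads of 6 pSSPC and 6 gpSSPC libraries had been aligned by the authors to mm10 with Bowtie2, freed of mitochondrial and duplicate reads and given to MACS2 2.2.7.1 (q-value of 0.05, no control sample). The deposited lists give per peak its length, pileup (signal in tags), fold enrichment (a ratio over local background) and −log10 p- and q-values. How multi-mapping reads were treated is not given in the sources used here, and the authors' differential test on ATAC-seq reads was not analysed here. Deposited RNA-seq counts are reads per gene after removal of molecular duplicates.

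Lists were cut to the shortest, merged and annotated with GENCODE vM21. Log2 values were quantile normalized and fitted with limma 3.58.1 in R 4.3.3, genotype alone, over regions in all 6 lists. Single values were compared by exact permutation. Named regions were all those called by fold enrichment or length, the strongest in 1 genotype, those of highest rank and the smallest p by pileup. Regions called or present in 1 genotype in the gene lists were named too. For lower fold enrichment the largest differences without overlap, among regions at or above the median level, were added with no call. Members and lists were chosen with earlier results of these data known. Motif letters were searched in promoters alone. Scripts were tested on simulated data (Python 3.11.15, numpy 2.4.6, pandas 2.3.3, scipy 1.17.1, matplotlib 3.10.9).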

Additional observations from a re-analysis of the deposited data

Results flagged for a closer look

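The genotype difference in the number of peaks went in opposite directions in the 2 populations, which the test of the difference between them marked. CKO minus Ctrl was 18525 peaks in pSSPCs and −16585 in gpSSPCs, 35110 apart (permutation of genotype within population, p = 0.015, smallest possible 0.005). The covered length differed likewise by 22.5 Mb (permutation p = 0.03), from a genotype difference of 12.3 Mb in pSSPCs and −10.2 Mb in gpSSPCs. Tags differed by 12.4 M (permutation p = 0.415), and the part of depth was not tested.

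Pileup marked 5 regions whose genotype difference, on the log2 scale, was larger in pSSPCs than in gpSSPCs by the limma interaction. It was larger by 1.26 in the *Lgr6* intron, by 1.79 near *Socs1*, by 1.14 in *Uck2*, by 1.52 near *Ibtk* and by 1.00 near *Jade2*.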

How the results depend on the processing

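Only regions with a peak in every list were tested, summits rest on few tags, depth differs between libraries and each group has 3. No alternative value reversed for the 12 regions called by fold enrichment, the 8 by length, the 30 with the smallest p by pileup and the 24 list and start site regions called by pileup, while 2 differences with no call changed sign, that at start sites and that in median fold enrichment. By fold enrichment, regions higher and lower in CKO numbered 11 and 1. They were 26 higher with regions in at least 2 lists of each genotype, 39 and 2 with median centring, 0 and 0 with the log2 tags as a covariate, and 637 and 290 by pileup. Leaving out 1 library gave 0 to 257 higher and 0 to 11 lower. By length, 8 were higher and 0 lower, with 1 higher from full lists, 3 and 3 from lists reduced by fold enrichment, 2 lower from peaks with a −log10 q of at least 5, and 0 higher with regions in at least 2 lists of each genotype. Median centring gave 2 higher, the tags as a covariate 0, and leaving out 1 library 0 to 26 higher and 0 to 1 lower. By pileup, 403 were higher from peaks with a −log10 q of at least 5, 1166 and 436 were higher and lower with median centring, and leaving out 1 library gave 83 to 1079 and 22 to 579. Presence gave 3289 and 138 regions from full lists and 863 and 42 without a peak of the other genotype in full lists, both on lists of unequal length. It gave 2297 to 3617 and 1234 to 1835 without 1 library. The start site difference was 0.342 by pileup, and −4.46 to −1.15 by fold enrichment without 1 library. The CKO minus Ctrl difference in median peak length was 5.0 bp in full and 101 bp in reduced lists, and that in median fold enrichment −0.44 and 0.457. Interactions numbered 0 to 17 by fold enrichment and 0 to 15 by pileup without 1 library. The causes were not tested. Of their alternative values, 110 of 164 by fold enrichment, 25 of 107 by length, 405 of 410 by pileup for the 30 regions, which their smallest p favours, and 223 of 328 for the 24 regions stayed past the threshold.

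The replicate numbers were not taken to pair the libraries. Same-numbered libraries correlated in their deviations by 0.02, 0.05 and 0.34 by fold enrichment and by 0.07, 0.24 and 0.33 by pileup. By pileup every library correlated best with its own number, a hint from the data and not the design, while by fold enrichment Ctrl 2 correlated best with CKO 1. With the replicate number as a block, fold enrichment called 65 regions higher and 5 lower, length 0 higher, pileup 1565 and 990, and the interaction 3 by fold enrichment and 240 by pileup.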
